A study of Rattus norvegicus with 9 samples.

Results

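The genes described here code for the machinery that stores triglyceride in lipid droplets of the muscle cell and releases it again: the lipase Pnpla2, its inhibitor G0s2 and co-activator Abhd5, the monoglyceride lipase Mgll, the droplet coat proteins Plin1, Plin2, Plin3, Plin4 and Plin5, and the droplet protein Cidec. They were chosen by their known function, with earlier results of these data known. Of the 10 genes, 9 have a probe set with a single gene symbol on the array and Plin4 was not analysed here, out of 14506 genes measured in this way. Each of the 9 is represented by 1 probe set, so no choice between probe sets had to be made. Transcripts were measured in the tibialis anterior muscle, a hindlimb muscle rich in fast fibres, of male Sprague Dawley rats that were 10 weeks old when bought. The groups were fed rats killed with a full stomach (Fed), rats fasted with free access to water until phase 2 of fasting (P2), in which body protein is spared, and rats fasted until phase 3 (P3), in which body protein is mobilized. P3 rats were killed on the day after this phase began. RNA from 3 of the 5 rats in each group was hybridised to 1 Affymetrix Rat Gene 1.0 ST array per rat, and each array carries the name of its group and a rat number (Fed 1, for example).

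Triglyceride in a lipid droplet is broken down in steps. Adipose triglyceride lipase (ATGL, coded by Pnpla2) removes the first fatty acid, and it is activated by ABHD5 and inhibited by G0S2. Hormone-sensitive lipase (Lipe) and monoglyceride lipase (Mgll) remove the others, so that fatty acids become available for oxidation in mitochondria. Perilipins coat the droplet and control the access of lipases. PLIN1 is typical of adipocytes, PLIN2 and PLIN3 are found in most cells, and PLIN5 occurs in tissues that oxidise much fat, where it links droplets to mitochondria. CIDEC promotes the fusion of droplets and is most abundant in white adipocytes.

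The values are log2 intensities after RMA (a background correction, a quantile normalization between arrays and a summary over the probes of a probe set), and differences are log2 fold changes with their standard error (SE) after the ± sign. Group levels are given with their SD, for 3 rats per group. A transcript is called higher or lower when limma gives a Benjamini-Hochberg adjusted p under 0.05 over all 29215 probe sets. Array medians lay between 5.8 and 5.9, so Plin1, Plin3 and Cidec sat near the middle or in the lower part of the intensity range in some or all groups. The skeletal muscle transcripts Acta1 and Ckm were between 13.83 and 13.98 and between 13.41 and 13.61 in all 9 arrays. Pearson's r across probe sets between arrays of the same group was 0.987 to 0.994, with the lowest mean value for P2 1. The arrays measure whole muscle, in which fewer cells of a type and less RNA per cell cannot be told apart.

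Fasting moved the lipase and its inhibitor in opposite directions already in P2, whereas Mgll, Plin2 and Plin5 were called between P2 and P3 and not between Fed and P2. In P2 versus Fed, Pnpla2 and Cidec were higher and G0s2 was lower, which makes 3 of 9 measured genes called, against 9.28% of all probe sets and 12.6% of the 14506 genes. By direction, 5.13% of all probe sets were called as higher and 4.15% as lower. In P3 versus Fed, Pnpla2, Plin2 and Abhd5 were higher and G0s2, Mgll and Plin5 were lower, 6 of 9 beside 29.2% of all probe sets (15.8% higher and 13.4% lower) and 35.3% of genes. Between the fasting phases, Plin2 was higher in P3 and Mgll, Plin5 and Cidec were lower, 4 of 9 beside 16% of probe sets (8.5% higher and 7.52% lower) and 21.8% of genes. The moderated F test across the 3 groups called Pnpla2, G0s2, Mgll, Plin2, Plin5 and Cidec, beside 26.2% of all probe sets. The 9 genes had a median log2 fold change versus Fed of 0.07 for P2 and of -0.09 for P3, and over all probe sets the medians were 0.01 and 0.0003. The groups did not overlap for 4 genes in P2 versus Fed, 6 in P3 versus Fed and 7 in P3 versus P2, where this held for 24.2%, 42.4% and 27.4% of all probe sets. Both comparisons with Fed use the same fed rats. P2 and P3 rats are different animals, so a change from P2 to P3 is a difference between groups.

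**Figure D1:**
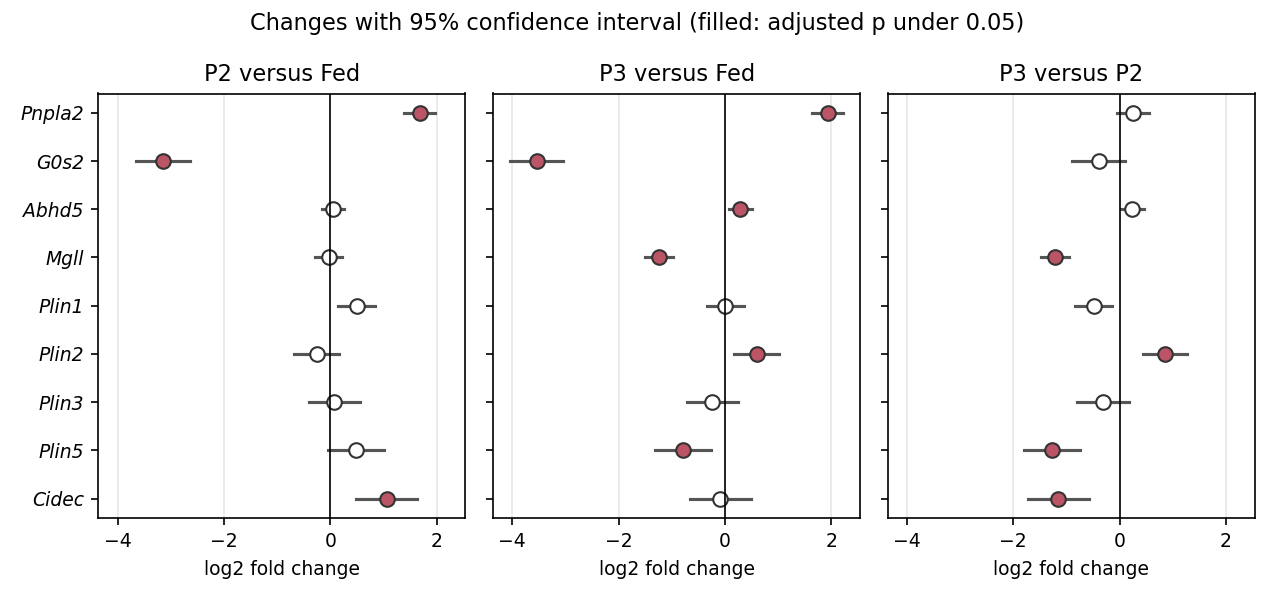
Log2 fold change (x axis) of the 9 measured genes (y axis) for both fasting phases against Fed and for P3 against P2, with 3 rats per group. Points are limma estimates, bars their 95% confidence interval, and filled points have an adjusted p under 0.05. G0s2 lies at -3.15 and -3.54 versus Fed and Pnpla2 at 1.68 and 1.93.

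Pnpla2, which codes ATGL, was at 9.74, 9.77 and 9.74 in the fed rats, at 11.45, 11.72 and 11.13 in P2 and at 11.75, 11.62 and 11.68 in P3. The fed rats were almost identical (SD 0.018), all fasted rats lay above them, and the spread was widest in P2 (SD 0.295). The increase was 1.68 ± 0.13 in P2 (3.21-fold, adjusted p = 0.000203) and 1.93 ± 0.13 in P3 (3.82-fold, adjusted p = 7.43e-06). In P2, 52 of the 29215 probe sets rose further, and in P3 258 did. The step from P2 to P3 was 0.25 ± 0.13 (adjusted p = 0.281), with a 95% confidence interval of -0.044 to 0.545, and without P2 2 it passed the test (0.39, adjusted p = 0.0385).

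G0s2, the inhibitor that binds ATGL, moved the other way and by more. Its log2 intensities were 9.61, 10.62 and 10.33 in fed rats, 6.99, 7.05 and 7.08 in P2 and 6.63, 6.47 and 6.84 in P3. The lowest fed rat was still above every fasted rat by more than 2 on the log2 scale, and the 3 P2 rats were close together (SD 0.044, beside 0.522 in Fed). The P2 change of -3.15 ± 0.22 (8.85-fold lower, adjusted p = 0.000136) was exceeded by the decrease of 1 other probe set on the array. In P3 the change was -3.54 ± 0.22 (11.6-fold lower, adjusted p = 5.07e-06), and 25 probe sets fell further. P2 and P3 rats did not overlap, but their difference of -0.39 ± 0.22 did not pass the test (adjusted p = 0.33, 95% confidence interval -0.899 to 0.11). For both genes the P2 change was thus most of the size of the P3 change, 87% of it for Pnpla2 and 88.9% for G0s2 on the log2 scale. Both P2 calls and both P3 calls held without any single array, with P2 changes between 1.54 and 1.83 for Pnpla2 and between -3.44 and -2.93 for G0s2.

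The promoters of this pair and of Plin5, a coat gene that changed later, are shown because their transcripts moved in different ways. They come from RefSeq (build GRCr8) and run from 250 bases before to 50 bases after the start of the gene, 5′ to 3′ on the strand of the gene. Pnpla2 lies on the plus strand at chr1:205982029-205982328, G0s2 on the minus strand at chr13:107335899-107336198 and Plin5 on the minus strand at chr9:1033235-1033534. Capitals mark AGGTCA, the core motif of nuclear receptors such as the PPARs, or its reverse complement.
Pnpla2: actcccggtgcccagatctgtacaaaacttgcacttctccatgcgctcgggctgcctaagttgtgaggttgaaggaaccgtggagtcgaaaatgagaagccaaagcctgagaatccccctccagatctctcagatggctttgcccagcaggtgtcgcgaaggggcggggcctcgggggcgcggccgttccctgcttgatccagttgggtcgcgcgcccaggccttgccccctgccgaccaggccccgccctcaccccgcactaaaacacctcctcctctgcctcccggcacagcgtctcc
G0s2: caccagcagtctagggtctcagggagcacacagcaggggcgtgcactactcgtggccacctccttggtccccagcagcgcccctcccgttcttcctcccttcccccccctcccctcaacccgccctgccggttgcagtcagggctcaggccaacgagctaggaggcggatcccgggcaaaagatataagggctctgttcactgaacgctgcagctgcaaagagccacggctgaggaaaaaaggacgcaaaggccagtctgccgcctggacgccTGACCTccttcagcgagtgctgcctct
Plin5: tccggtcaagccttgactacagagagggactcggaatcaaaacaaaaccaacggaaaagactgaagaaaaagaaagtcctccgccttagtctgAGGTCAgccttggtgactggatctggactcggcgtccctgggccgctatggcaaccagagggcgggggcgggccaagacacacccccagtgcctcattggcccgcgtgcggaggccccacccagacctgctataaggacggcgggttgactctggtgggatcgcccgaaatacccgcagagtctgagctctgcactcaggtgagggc
Both strands were searched for this core motif, for the FOXO motif GTAAACA and for TGTTCT, part of the glucocorticoid receptor's site, and none of these motifs overlaps another in the windows of the listed genes. G0s2 has the nuclear receptor motif on the minus strand of the gene, from base 24 after the start, and Plin5 has it on the plus strand, from base -157. Abhd5 has it from base -207 on the minus strand, and TGTTCT is found in Mgll from base -205 and in 1 of the 5 start sites of Plin4. No window of the 10 genes holds GTAAACA, and that of Pnpla2 holds none of the motifs. Of all 33469 promoter windows, 16.2% hold AGGTCA, 20.7% hold TGTTCT and 3.78% hold GTAAACA. These matches are a description of the letters and not of binding.

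**Figure D2:**
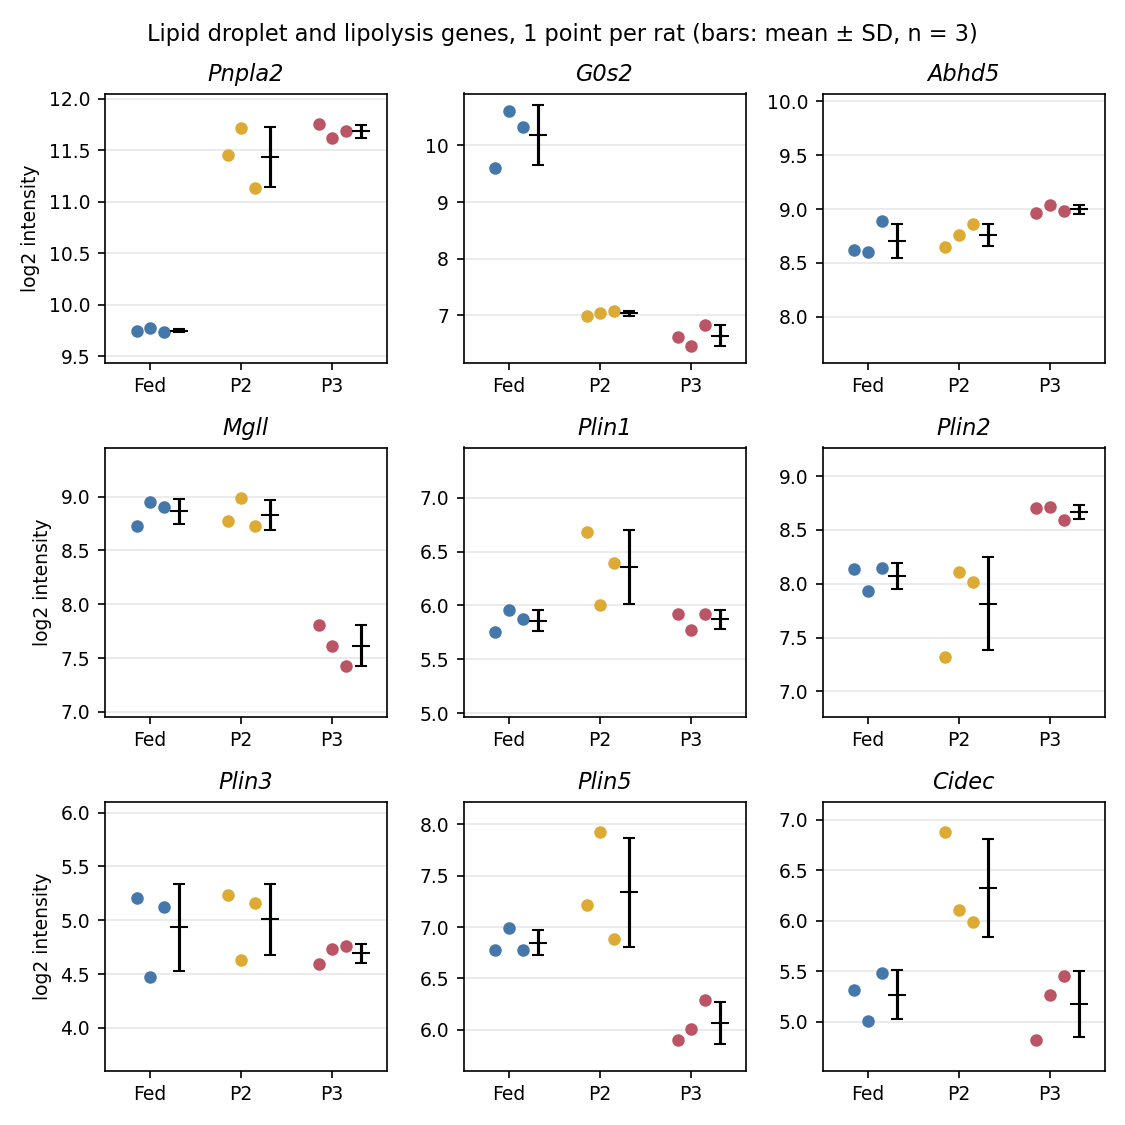
Log2 intensity (y axis) of each measured gene in the 3 Fed, 3 P2 and 3 P3 rats (x axis), 1 point per rat, with the mean and SD beside each group; the y axes differ between genes. Pnpla2 and G0s2 separate fed from fasted rats, Mgll and Plin2 separate P3 from the others, and Cidec is highest in P2.

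Abhd5, the co-activator of ATGL, was nearly flat. Fed rats were at 8.62, 8.60 and 8.89, P2 rats at 8.65, 8.76 and 8.86 and P3 rats at 8.96, 9.04 and 8.99. P3 rats lay narrowly above all others, and Fed and P2 overlapped. The P3 change of 0.29 ± 0.09 was just past the threshold (adjusted p = 0.0443, 1.22-fold), and the moderated F test across the groups did not call the gene (adjusted p = 0.0904). In P2 the value was 0.05 ± 0.09 (adjusted p = 0.802), with a 95% confidence interval of -0.159 to 0.267. The P3 call was lost without any one of Fed 1, Fed 2, P2 2, P2 3, P3 1, P3 2 or P3 3, with adjusted p of up to 0.146.

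Mgll, which completes lipolysis by splitting monoglycerides, was lower in P3, unlike Pnpla2. It was at 8.73, 8.95 and 8.91 in fed rats and at 8.77, 8.98 and 8.73 in P2, and fell to 7.81, 7.61 and 7.43 in P3. Every P3 rat was below every other rat. The P3 change was -1.25 ± 0.12 versus Fed (2.37-fold lower, adjusted p = 4.73e-05) and -1.21 ± 0.12 versus P2 (adjusted p = 0.00016). In P2 the value was -0.03 ± 0.12 versus Fed (adjusted p = 0.911), with a 95% confidence interval of -0.296 to 0.23. The lower P3 level was called versus Fed and versus P2 whichever array was left out.

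Of the perilipins, Plin2 and Plin5 differed in opposite directions between P2 rats and P3 rats. Plin2, which coats droplets in most cells, was at 8.14, 7.94 and 8.14 in fed rats, at 7.32, 8.11 and 8.02 in P2 and at 8.70, 8.71 and 8.59 in P3. P3 rats were above all others, and P2 1 was the lowest array. The step from P2 to P3 was 0.85 ± 0.18 (1.81-fold, adjusted p = 0.0123), and it was 0.61 without P2 1. It was called whichever array was left out (adjusted p between 0.00296 and 0.0445). It was not called at an adjusted p under 0.01 or by the methods' analysis of variance and Tukey test at either setting. Versus Fed the P3 change was 0.60 ± 0.18 (adjusted p = 0.0377), a call lost without any one of the Fed or P3 arrays, with adjusted p of up to 0.125. With the replicate block it was also lost (adjusted p = 0.0585). The P2 value versus Fed, -0.26 ± 0.18 (adjusted p = 0.487), was -0.0091 without P2 1.

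Plin5, the coat protein of oxidative tissues, was at 6.78, 6.99 and 6.78 in fed rats, at 7.22, 7.92 and 6.88 in P2 and at 5.90, 6.01 and 6.29 in P3. All P3 rats were below all others, while P2 rats spread widely (SD 0.531) and overlapped with Fed. The P3 versus P2 change of -1.27 ± 0.23 (2.41-fold lower, adjusted p = 0.00531) was called whichever array was left out, with values from -1.50 to -0.98. The P3 versus Fed change was -0.78 ± 0.23 (adjusted p = 0.0325), and this call was lost without any one of Fed 1, Fed 2, Fed 3, P3 1 or P3 2 (adjusted p of up to 0.109). In P2 versus Fed the value was 0.49 ± 0.23 (adjusted p = 0.259), and it was 0.20 without P2 2.

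Plin3, which moves from the cytosol to newly formed droplets, had the lowest intensities, from 4.47 to 5.24 over the 9 arrays. Its groups overlapped in every comparison and it was not called in any of them. Versus Fed, P2 rats differed by 0.07 ± 0.21 (adjusted p = 0.892, 95% confidence interval -0.408 to 0.555) and P3 rats by -0.24 ± 0.21 (adjusted p = 0.466, 95% confidence interval -0.721 to 0.242). Plin4 and Plin5 are adjacent genes on rat chromosome 9, and Plin3 lies near them with 13 annotated genes in between.

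Cidec and Plin1, both typical of adipocytes, were highest in P2. Cidec was at 5.31, 5.0 and 5.48 in fed rats, at 6.88, 6.11 and 5.98 in P2 and at 4.81, 5.26 and 5.45 in P3. No P2 rat overlapped with the other groups, and P2 1 was the highest. The change was 1.06 ± 0.25 in P2 versus Fed (2.08-fold, adjusted p = 0.0325) and -1.15 ± 0.25 in P3 versus P2 (adjusted p = 0.0136), and the P3 value versus Fed was -0.09 ± 0.25 (adjusted p = 0.837). The P2 call was lost without any one of Fed 1, Fed 2, Fed 3, P2 2 or P3 2 (adjusted p of up to 0.121) and with the replicate block (adjusted p = 0.0711). Fitting only the compared groups (adjusted p = 0.0638) or requiring an adjusted p under 0.01 also lost this call. So did the methods' analysis of variance and Tukey test at either setting. Without P2 1 it held, with a smaller change of 0.78 (adjusted p = 0.0436). The P3 versus P2 call was lost without P3 1 (adjusted p = 0.0501).

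Plin1, the perilipin of adipocytes, was at 5.75, 5.96 and 5.87 in fed rats, at 6.68, 6.0 and 6.39 in P2 and at 5.92, 5.77 and 5.92 in P3. The P2 rats lay above the others with P2 1 highest, as for Cidec, but the differences of 0.50 ± 0.15 versus Fed (adjusted p = 0.0827) and -0.49 ± 0.15 in P3 versus P2 (adjusted p = 0.0651) did not pass the test. Both passed without P2 2 (adjusted p = 0.0123 and 0.00573), and the second passed when only probe sets with a mean of at least 5 were tested (adjusted p = 0.0433).

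Some markers of adipocytes were higher in P2, as Cidec was. Of 14 adipocyte markers, 6 were higher in P2 and none was lower (42.9% called), with a median log2 fold change of 0.74. The share called was 9.28% of all probe sets and 12.6% of the 14506 genes. In P3, 2 markers were higher and 2 lower versus Fed, a share of 28.6% beside 29.2% of all probe sets and 35.3% of the genes. Thrsp (3.09, adjusted p = 3.67e-05) and Trarg1 (0.74, adjusted p = 0.00049) were higher in P3, unlike Cidec and Plin1. Fabp4 (-0.46) and Lipe (-0.34) were lower. Versus P2, 1 marker was higher in P3 and 6 were lower (50% beside 16%). Adipoq, the adipokine adiponectin, was at 5.13, 5.40 and 5.64 in fed rats, 7.86, 6.63 and 6.95 in P2 and 5.27, 5.79 and 6.09 in P3, so that P2 1 was again the highest. It rose by 1.76 in P2 (adjusted p = 0.00987). Trarg1 rose by 1.06, Lipe by 0.98, Pck1 by 0.91, Fabp4 by 0.69 and Acvr1c by 0.69, whereas Cfd (0.84, adjusted p = 0.0757), Aqp7 (0.87), Thrsp (0.78), Pparg (0.55), Slc7a10 (0.20), Lep (0.17), Retn (0.13) and Adrb3 (-0.02) were not called in P2. Of these, Lipe, Aqp7, Pparg and Fabp4 are also expressed by other cells of muscle. The linear intensities of the 14 markers summed to between 1669 and 1728 in fed, 2807 and 2966 in P2 and 2034 and 2578 in P3 rats, with Fabp4 and, in P3, Thrsp as the brightest markers. No marker can be read as absent from these values, and leptin (Lep) stayed between 4.39 and 4.89 in all arrays. Whether adipocytes in the muscle samples contribute to the P2 levels of Cidec and Plin1 was not tested.

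**Figure D3:**
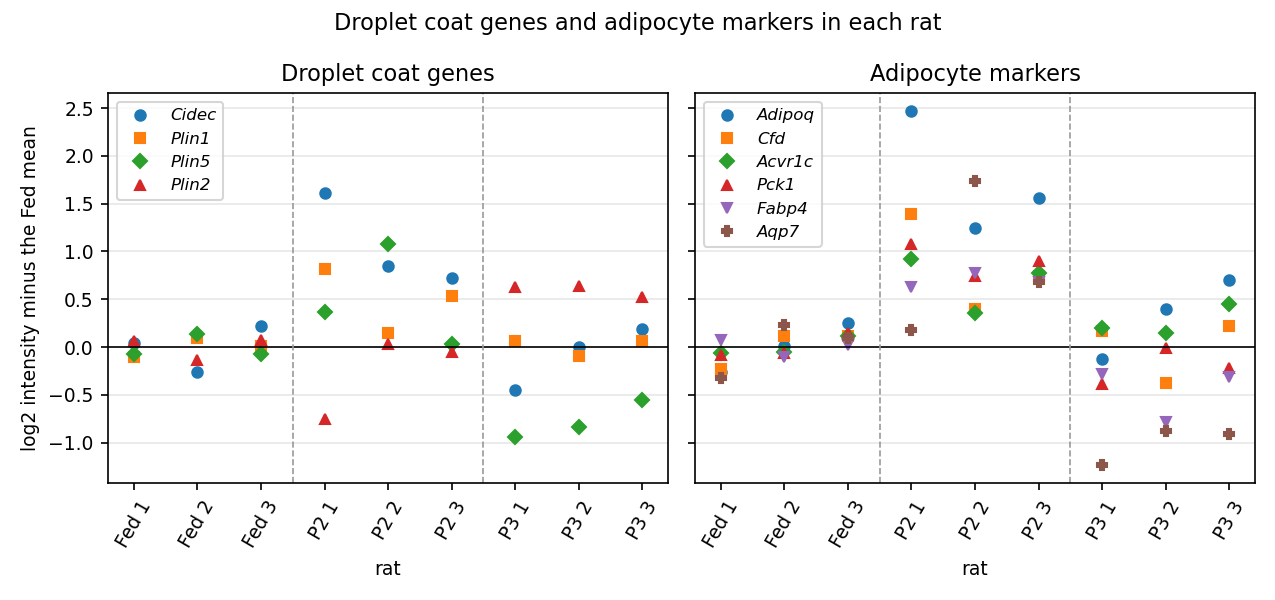
Log2 intensity minus the Fed mean (y axis) in each of the 9 rats (x axis), for 4 droplet coat genes on the left and 6 adipocyte markers on the right; dashed lines separate the groups. Cidec, Plin1, Adipoq and Cfd are highest in P2 1, whereas Plin5 and Aqp7 are highest in P2 2 and Plin2 is lowest in P2 1.

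Markers of other cell types are read against the same shares of all probe sets, 9.28% called in P2 and 29.2% in P3 against Fed. The shares of the 14506 genes with 1 symbol, to which all listed markers belong, were 12.6% and 35.3%. In P2 none of 10 macrophage markers was called. In P3, Cd163 was higher (1.4) and Aif1 lower (-0.40), which is 20% of the list. The summed intensity of the list, Cd163 included, ranged from 981 to 1590 in fed, from 1019 to 1612 in P2 and from 919.8 to 1658 in P3 rats. Macrophages also express Plin2, and their part in its P3 increase was not tested. Endothelial markers had 1 of 7 higher in each fasting phase (14.3%), Cldn5 in P2 (0.42) and Pecam1 in P3 (0.91). Their sums were 2447 to 2566 in fed, 2251 to 3545 in P2 and 2345 to 3705 in P3 rats. Of 8 markers of fibro-adipogenic cells, 1 was lower in P2 (Col3a1, -2.44, 12.5%) and 5 in P3 (62.5%), of which 3 were collagens. Col1a1 (-4.18), Col3a1 (-3.81) and Col1a2 (-3.67) had the largest P3 changes of this list. Pdgfra (-0.39, adjusted p = 0.377), Pdgfrb (0.06, adjusted p = 0.839) and Dcn (0.39, adjusted p = 0.0924) were not called in P3 versus Fed. The sums were 14920 to 16750 in fed, 6329 to 12010 in P2 and 4386 to 6908 in P3 rats. The collagens Col1a1 and Col1a2 were the brightest of these markers in fed rats. Of 9 markers of muscle fibres, 1 was lower in P2 (Pvalb, -0.53, 11.1%) and 3 in P3 (33.3%), and none was higher. The P3 changes of these were -0.72 for Tnni2, -1.87 for Pvalb and -0.81 for Mb. Of all probe sets, 4.15% were called lower in P2 and 13.4% in P3. The fibre marker sums were 95640 to 97410 in fed, 86970 to 89770 in P2 and 75630 to 80960 in P3 rats. Of the 2 brown adipocyte markers measured, Dio2 was higher in P3 versus Fed (1.5, adjusted p = 0.00662), and Ucp1, the defining one, stayed between 4.11 and 4.54 in all arrays. The part of these shifts in the lower P3 levels of Mgll and Plin5 was not tested.

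Among 23 measured partners of the droplet outside the 10 genes, 3 were higher and 1 was lower in P2, and P3 had 6 above and 8 below Fed, which is 17.4% and 60.9% called beside 9.28% and 29.2% of all probe sets. Their medians were 0.04 and -0.18 on the log2 scale. Between the phases 4 were higher and 7 lower in P3 (47.8% beside 16%). Lipe, the hormone-sensitive lipase that acts after ATGL, was at 7.75, 7.55 and 7.74 in fed, 8.63, 8.76 and 8.59 in P2 and 7.40, 7.21 and 7.40 in P3 rats, without overlap between any pair of groups. It rose in P2 (0.98, adjusted p = 0.000399) and fell from P2 to P3 (-1.32, adjusted p = 2.66e-05) to below the fed level (-0.34, adjusted p = 0.0178). Its P2 level was thus raised like that of Pnpla2, but its P3 level was not. Abhd6, another monoglyceride lipase, had a P2 value of 0.23 (adjusted p = 0.409), and in P3 it was higher by 1.13 than in Fed (adjusted p = 0.000292), where Mgll was at -1.25.

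Some genes that help to build droplets were lower in P3. Fitm1 and Fitm2, which partition triglyceride into budding droplets, changed by -1.49 (adjusted p = 1.93e-05) and -1.39 (adjusted p = 0.000292) in P3 versus Fed, and Fitm2 was already lower in P2 (-0.78, adjusted p = 0.0244). Bscl2, the seipin that shapes nascent droplets, changed by -0.44 in P3 (adjusted p = 0.00744). Acsl1, which activates fatty acids, fell by 1.73 in P3 (adjusted p = 0.000116). The largest P3 decrease among the partners was that of Serpinf1, which codes the secreted factor PEDF, a ligand of ATGL (-2.31, adjusted p = 3.77e-05). Among the partners called higher were Hsd17b11, Aup1 and Rab18. Hsd17b11, a droplet dehydrogenase, rose by 0.73 and 0.97 on the log2 scale in the earlier and the later phase. Aup1, a droplet protein of ubiquitin-dependent degradation, rose by 0.69 and 0.92. For the small GTPase Rab18 the P2 value was 0.04 (adjusted p = 0.839) and the P3 value 0.84 (adjusted p = 6.24e-05).

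**Figure D4:**
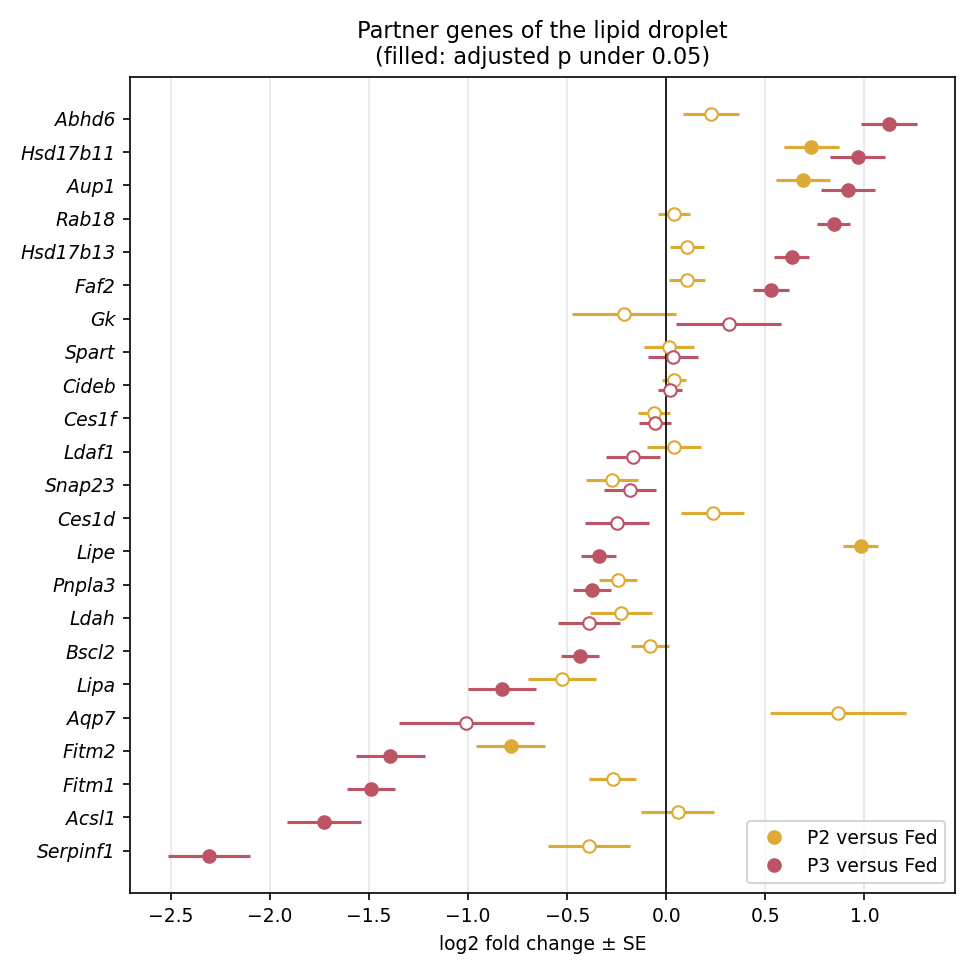
Log2 fold change with its SE (x axis) of the 23 measured partner genes (y axis) in P2 and in P3 versus Fed, 3 rats per group; filled points have an adjusted p under 0.05. Lipe lies at 0.98 in P2 and -0.34 in P3, and Serpinf1 at -2.31 in P3.

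Of 15 measured transcription factors that control lipolysis and droplet genes, 5 were higher and 1 lower in P2 (40% called, beside 9.28% of all probe sets). In P3, 5 were higher and 4 lower (60% beside 29.2%), and the medians versus Fed were 0.083 and 0.093. Foxo1, which insulin keeps out of the nucleus and which activates Pnpla2, was at 7.73, 8.02 and 7.92 in fed, 9.32, 9.93 and 9.61 in P2 and 10.72, 10.66 and 10.80 in P3 rats. Its P2 change of 1.73 (adjusted p = 0.000284) was close to that of Pnpla2, but it rose by a further 1.11 from P2 to P3 (adjusted p = 0.000895). Klf15, a target of the glucocorticoid receptor, changed by 1.79 in P2 and 3.51 in P3, and Foxo3 by 1.34 and 2.40. The coactivator Ppargc1b was lower, by -1.22 in P2 and -2.55 in P3, and Ppargc1a changed by -1.91 in P3 (adjusted p = 1.15e-05) and -0.39 in P2 (adjusted p = 0.13).

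Among 15 genes of the hormonal signal to lipolysis, 3 were higher and 1 lower in P2 (26.7% called, beside 9.28% of all probe sets). In P3, 3 were higher and 5 lower (53.3% beside 29.2%), and the medians versus Fed were -0.023 and -0.02. Insr, the insulin receptor, changed by 0.75 in P2 and 1.38 in P3 and Irs1, its substrate, by -0.78 and -0.94. Pde4d and Pde3b, phosphodiesterases that break down cyclic AMP, were higher in P2 (0.80, adjusted p = 0.00287, and 0.52, adjusted p = 0.0438) and had P3 values of 0.15 and 0.14 versus Fed that were not called. From P2 to P3, Pde4d fell by 0.65 (adjusted p = 0.00358). Prkaca, the catalytic subunit of the cyclic AMP-dependent kinase, changed by -1.17 in P3 (adjusted p = 0.000104).

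The PPARs are nuclear receptors activated by fatty acids, and Plin2, Plin5, Cidec and G0s2 are known PPAR targets in some tissues. Of 17 measured PPAR target genes of muscle outside the 10 genes, 7 were higher and none lower in P2 (41.2% called, beside 9.28% of all probe sets), and P3 had 3 above and 7 below Fed (58.8% beside 29.2%). Between the phases, 11 were lower and 1 higher in P3 (70.6% beside 16%), with a median log2 fold change of -0.79. The transient genes among them included Angptl4, which blocks lipoprotein lipase (2.90 in P2 and -2.70 in P3 versus P2), and Ucp3 (2.24 and -3.21). Pdk4, which shuts off pyruvate dehydrogenase, was higher in both phases (3.06 and 2.62 versus Fed), and Fabp3, which carries fatty acids in muscle, was lower in P3 (-3.60). Beside these, the P3 versus P2 changes were -1.27 for Plin5, -1.15 for Cidec, 0.85 for Plin2 and -0.39 for G0s2 (not called). In P2 versus Fed, G0s2 was lower (-3.15), where none of the 17 targets was. Of the receptors, Ppara was lower (-0.64) and Ppard higher (0.43) in P3 versus Fed, and Pparg was not called. These lists were chosen for their known function with earlier results of the same arrays in view, and their shares of calls are set beside those of all probe sets as a description. Lipe, Aqp7, Pparg and Adrb3 are adipocyte markers that also stand in another list, so they count in both shares.

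The genes whose levels followed those of each gene past the F test most closely were found among 1657 other genes (1658 for Plin2) with group means at least 1 apart and a mean of at least 6 in some group, by Pearson's r over the 9 arrays. These points form 3 groups of rats, so r mainly describes the order of the groups. For Pnpla2 they were Tspan4 (0.994), Slc43a1 (0.991) and Pim3 (0.989), and for G0s2 they were Lama3 (0.985), Tsc22d4 (0.981) and Eno1 (0.981). Mgll was followed by Fabp3 (0.991), Eci2 (0.989) and Mlxipl (0.989). Plin5 was followed by Eci1 (0.966), an enzyme of fatty acid oxidation, by the glycerol channel Aqp7 (0.947) and by Klf10 (0.93), and Plin2 by Hk2 (0.96), Sgk1 (0.957) and Tceanc (0.952). For Cidec they were Adipoq (0.946), Mlycd (0.927) and Pck1 (0.926).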

How the data were processed

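Each of 9 tibialis anterior RNA samples had its own Rat Gene 1.0 ST array (Affymetrix). The deposited values are log2 intensities that the authors obtained by RMA (sketch quantile normalization, median polish) with Expression Console 1.1 of Affymetrix, and they were used unchanged. Quantile normalization makes the arrays' distributions alike, so changes are relative to the array as a whole, and a low probe set understates its fold change. Genes come from the platform annotation, in which 15310 of 29215 probe sets have 1 symbol; where a gene has several, the one of highest mean was taken. A linear model with a mean per group was fitted over the 9 arrays by limma 3.58.1 in R 4.3.3 (lmFit, eBayes), with Benjamini-Hochberg adjustment over all 29215 probe sets. The methods' analysis of variance and Tukey test were an alternative. The fit was tested on simulated data. The number of arrays, 3 per group, limits the precision. The labels name rats only by group and number.

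The 10 genes, the lists and the naming rule were chosen with earlier results of these data known. Values are given for the measured ones of the 10 genes, all adipocyte markers, and the 3 genes most alike to each member past the F test. For each other list, the naming rule was up to 3 of the most changed called members per comparison, and some of these are not given with a value. Some named list genes that were not called, or that rank below those, were chosen after their values were seen. Figures used Python 3.11.15 and matplotlib 3.10.9. Promoter windows come from the RefSeq tables of build GRCr8. As alternatives, values were normalized by quantiles once more or centred on array medians; probe sets were limited to those with a mean of at least 5 or to those with 1 symbol, or averaged per gene; the fit used a trend with robust moderation, weights per array, the compared groups alone or a replicate block; calls required an adjusted p under 0.01, at least 1.5-fold, or the methods' test at p under 0.001 or adjusted at 0.05; and each array was left out in turn.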

Additional observations from a re-analysis of the deposited data

Results flagged for a closer look

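The change from Fed to P2 differed from the change from Fed to P3 for 4 genes, by the direct limma test of P3 versus P2 with 3 rats per group. Mgll fell from P2 to P3 (-1.21 ± 0.12, adjusted p = 0.00016) after a P2 value of -0.03 versus Fed. Plin2 was higher in P3 than in P2 (0.85 ± 0.18, adjusted p = 0.0123), with values versus Fed of -0.26 and 0.60 in the earlier and the later phase. Plin5 fell between the phases (-1.27 ± 0.23, adjusted p = 0.00531), with values of 0.49 and -0.78 versus Fed. Cidec was also lower (-1.15 ± 0.25, adjusted p = 0.0136), with values of 1.06 and -0.09 versus Fed, and this call was lost without P3 1 (adjusted p = 0.0501). The calls of Plin2 and Cidec were lost at an adjusted p under 0.01 and with the methods' analysis of variance and Tukey test at either setting. That of Plin5 was lost with the methods' test at p under 0.001. P2 1 held the highest values of Cidec and Plin1 and the lowest of Plin2 among all arrays.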

How the results depend on the processing

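The 9 genes gave 27 log2 fold changes, of which 591 values were recomputed under 22 alternatives; 522 kept their direction and side of the threshold, 51 lost a call, 8 gained one and 10 changed sign. Plin3, with a mean under 5, gave no value under that filter. With an adjusted p under 0.01, 3 genes were called in P3 versus Fed and 2 in P3 versus P2, in place of 6 and 4. The methods' analysis of variance and Tukey test called 3 and 1 at p under 0.001, and 3 and 2 with adjustment at 0.05. Under each of these settings Cidec lost its call in P2 versus Fed. Quantile normalization once more left 4 called in P3 versus Fed. Leaving out 1 array gave 3 to 6 genes in P3 versus Fed, with 3 without Fed 1, Fed 2, P3 1 or P3 2. It gave 2 or 3 in P2 versus Fed and 3 to 6 in P3 versus P2. Pnpla2 and G0s2 in either phase versus Fed, and Mgll in P3 versus Fed and versus P2, were called under all 22 alternatives. Signs changed, when an array was left out, only for values near 0 that were never called: Cidec in P3 versus Fed (-0.226 to 0.0922), Mgll in P2 versus Fed (-0.111 to 0.0158), Plin1 in P3 versus Fed (-0.0415 to 0.0632) and Plin3 in P2 versus Fed (-0.159 to 0.262). With the replicate block 2 genes were called in P2 versus Fed, 5 for P3 and 4 between the phases; the block lost Cidec in P2 (adjusted p = 0.0711) and Plin2 in P3 versus Fed (adjusted p = 0.0585) and changed no other call. The numbers do not pair the rats: deviations of arrays with the same number had r of -0.243 to 0.123, and an array correlated best with its own number in 6 of 18 checks. The number of arrays limits what can be called, and for low probe sets such as Plin3 the signal is close to the lower end of the scale.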
